A study of Mus musculus with 15 samples.

Results

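The interferon signalling receptors and transcription factors described here are 9 genes: the type I receptor chains Ifnar1 and Ifnar2, the type II receptor chains Ifngr1 and Ifngr2, and the factors Stat2, Irf9, Irf7, Irf3 and Irf1. They were chosen by name, with earlier results of these data known. Their probes were found through the transcript identifier of each array spot: 12 probes matched, 1 for each gene except Irf1 (2 probes) and Ifnar1 (3 probes). The brightest probe stood for each gene, so the 9 genes are 9 of the 28041 genes or unnamed transcripts that were tested. All 9 passed the filter on dim probes, and each of these probes was well above background on 15 of 15 arrays.

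Interferons are secreted proteins that cells release on sensing foreign or misplaced nucleic acid (type I, such as the interferon alpha and beta proteins) or that T and NK cells release on activation (type II, interferon gamma). Ifnar1 and Ifnar2 form the receptor of the type I proteins, and Ifngr1 and Ifngr2 that of interferon gamma. Behind the type I receptor, Stat2 and Irf9 are subunits of the complex ISGF3, which binds the interferon-stimulated response element, or ISRE. Irf3 and Irf7 are the factors that switch on type I interferon genes. Irf3 is made constitutively and activated by phosphorylation, whereas Irf7 is itself an interferon-induced gene. Irf1 is induced mainly by interferon gamma, whose signalling acts on DNA through the GAS element.

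The study profiled mammary tumours of female MMTV-PyMT mice, in which the mouse mammary tumour virus promoter drives the polyomavirus middle T oncogene in mammary epithelium, on 1-colour Agilent arrays labelled with Cy3. Tumours were taken before any treatment (T0, n = 4) or once treatment had ended, from mice on vehicle (n = 3), B20 (n = 4) or nintedanib (n = 4). All groups carry the same transgene, and mice were 7 weeks old when dosing began. The antibody B20-4.1.1 neutralises VEGF, a growth factor that drives vessel growth, and was given as 2 intraperitoneal doses of 5 mg per kg each week. Nintedanib is an oral kinase inhibitor of the VEGF, FGF and PDGF receptors and was given at 85 mg per kg per day. Separate animals within a group are not stated in the labels, so the spread that the p-values measure may partly be technical. RNA came from whole tumours, where fewer cells of a type and less RNA per cell cannot be told apart.

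Median raw signals were 55 to 102 over a local background of 19 to 26, and the 7 luminal epithelial markers, Krt8 and Epcam among them, were well above background on all 15 arrays. Correlations between arrays of 1 group were 0.9459 to 0.9851. T0 replicate 3 stood apart, with 84.18% of probes well above background against 53.46% to 68.1% on the other arrays. The shares were 63.22% to 68.1% on nintedanib arrays, 59.29% to 62.55% on B20 arrays and 57.96% to 64.99% on vehicle arrays. Counts of arrays well above background are not scaled, so they may partly follow the brightness of an array, which was not tested. T0 replicate 4 carries 2 treatment labels, vehicle and before any treatment, and was kept in T0 by its title. The 4 T0 arrays lie on 2 slides of their own, scanned on another day and read with another version of the image-analysis protocol, so slide and group cannot be told apart in any comparison with T0. The other 2 slides each hold vehicle, B20 and nintedanib arrays.

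Promoters are printed for the factors Irf7, Irf9, Stat2 and Irf1, since interferons act on genes through elements such as the ISRE and GAS. Of these, Stat2 and Irf1 overlapped with vehicle under both drugs, as given below. RefSeq (GRCm38.p6) held 11 promoters for the 9 genes, each running from 250 bases before to 50 bases after the start of transcription. On both strands they were searched for the ISRE core GAAANNGAAA and the GAS element TTCNNNGAA (the latter reads alike on both strands). Capitals mark a match. The starts shown are Irf7 (chr7:141266375-141266674, minus strand), both starts of Irf9 (chr14:55603735-55604034, plus strand, and chr14:55604329-55604628, plus strand), Stat2 (chr10:128270248-128270547, plus strand) and the first start of Irf1 (chr11:53769764-53770063, plus strand).
Irf7: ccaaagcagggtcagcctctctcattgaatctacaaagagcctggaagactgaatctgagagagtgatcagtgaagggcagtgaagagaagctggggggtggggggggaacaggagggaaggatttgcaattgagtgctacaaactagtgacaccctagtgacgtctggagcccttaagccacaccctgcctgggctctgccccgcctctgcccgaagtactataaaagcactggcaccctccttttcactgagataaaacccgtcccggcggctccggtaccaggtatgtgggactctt
Irf9, start 1: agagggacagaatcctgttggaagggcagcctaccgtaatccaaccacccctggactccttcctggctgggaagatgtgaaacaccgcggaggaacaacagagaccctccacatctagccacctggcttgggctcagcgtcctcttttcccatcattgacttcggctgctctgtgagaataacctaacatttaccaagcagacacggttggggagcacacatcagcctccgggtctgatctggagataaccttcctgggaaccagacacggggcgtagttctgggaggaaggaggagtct
Irf9, start 2: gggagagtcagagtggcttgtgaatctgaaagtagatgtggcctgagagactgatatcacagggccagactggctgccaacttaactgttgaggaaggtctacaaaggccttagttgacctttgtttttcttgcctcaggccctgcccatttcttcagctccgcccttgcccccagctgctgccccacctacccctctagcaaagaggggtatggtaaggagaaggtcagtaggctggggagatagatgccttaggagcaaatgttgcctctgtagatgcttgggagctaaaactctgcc
Stat2: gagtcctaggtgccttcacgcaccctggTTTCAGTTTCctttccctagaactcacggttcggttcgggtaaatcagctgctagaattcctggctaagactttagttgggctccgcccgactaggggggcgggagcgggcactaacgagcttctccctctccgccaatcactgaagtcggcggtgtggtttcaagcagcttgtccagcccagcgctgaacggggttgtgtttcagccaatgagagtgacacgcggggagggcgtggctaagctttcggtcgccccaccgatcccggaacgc
Irf1, start 1: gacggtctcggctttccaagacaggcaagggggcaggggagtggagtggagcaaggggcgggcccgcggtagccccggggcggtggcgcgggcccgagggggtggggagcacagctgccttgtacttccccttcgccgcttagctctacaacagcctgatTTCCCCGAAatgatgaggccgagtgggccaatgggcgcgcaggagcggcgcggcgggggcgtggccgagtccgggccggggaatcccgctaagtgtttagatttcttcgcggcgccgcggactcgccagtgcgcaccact

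The ISRE core occurred in the promoter of 1 of the 9 genes, Stat2, as TTTCAGTTTC on the opposite strand at positions -222 to -213. It occurs in 3.99% of the 27025 genes with a promoter in the table. The GAS element occurred in 3 of the 9: Irf1 (TTCCCCGAA, -90 to -82), Ifnar1 (TTCACGGAA, -5 to 4) and Ifnar2 (TTCCTGGAA, -214 to -206), against 9.55% of all genes. These letters were not in the windows of Irf7, Irf9, Irf3, Ifngr1 or Ifngr2. Among the 12 type I interferon targets listed for comparison, 8 had a promoter in the table, and 5 of these held the ISRE core (Bst2, Ifit1, Ifit3, Isg15 and Rsad2). A match is a description of the sequence and not a site of binding.

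The first question was whether the interferon machinery differed between treated tumours and vehicle tumours at the end of treatment. Irf7 and Irf9 were the genes that set both drug groups apart from vehicle: every nintedanib array and every B20 array lay above every vehicle array. The means differed by 4.93-fold for Irf7 and 1.51-fold for Irf9 under nintedanib, and by 3.33-fold and 1.53-fold under B20. Neither passed the test. In limma's moderated test, adjusted by Benjamini-Hochberg over the 28041 tested, 0 genes were called at an adjusted p under 0.05 in nintedanib vs vehicle (0% of those tested, lowest adjusted p 0.197), and 0 in B20 vs vehicle (lowest 0.254). At an unadjusted p under 0.05 there were 1353 and 912. The 4 receptor chains, Stat2, Irf3 and Irf1 overlapped with vehicle in both drug groups.

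**Figure D1:**
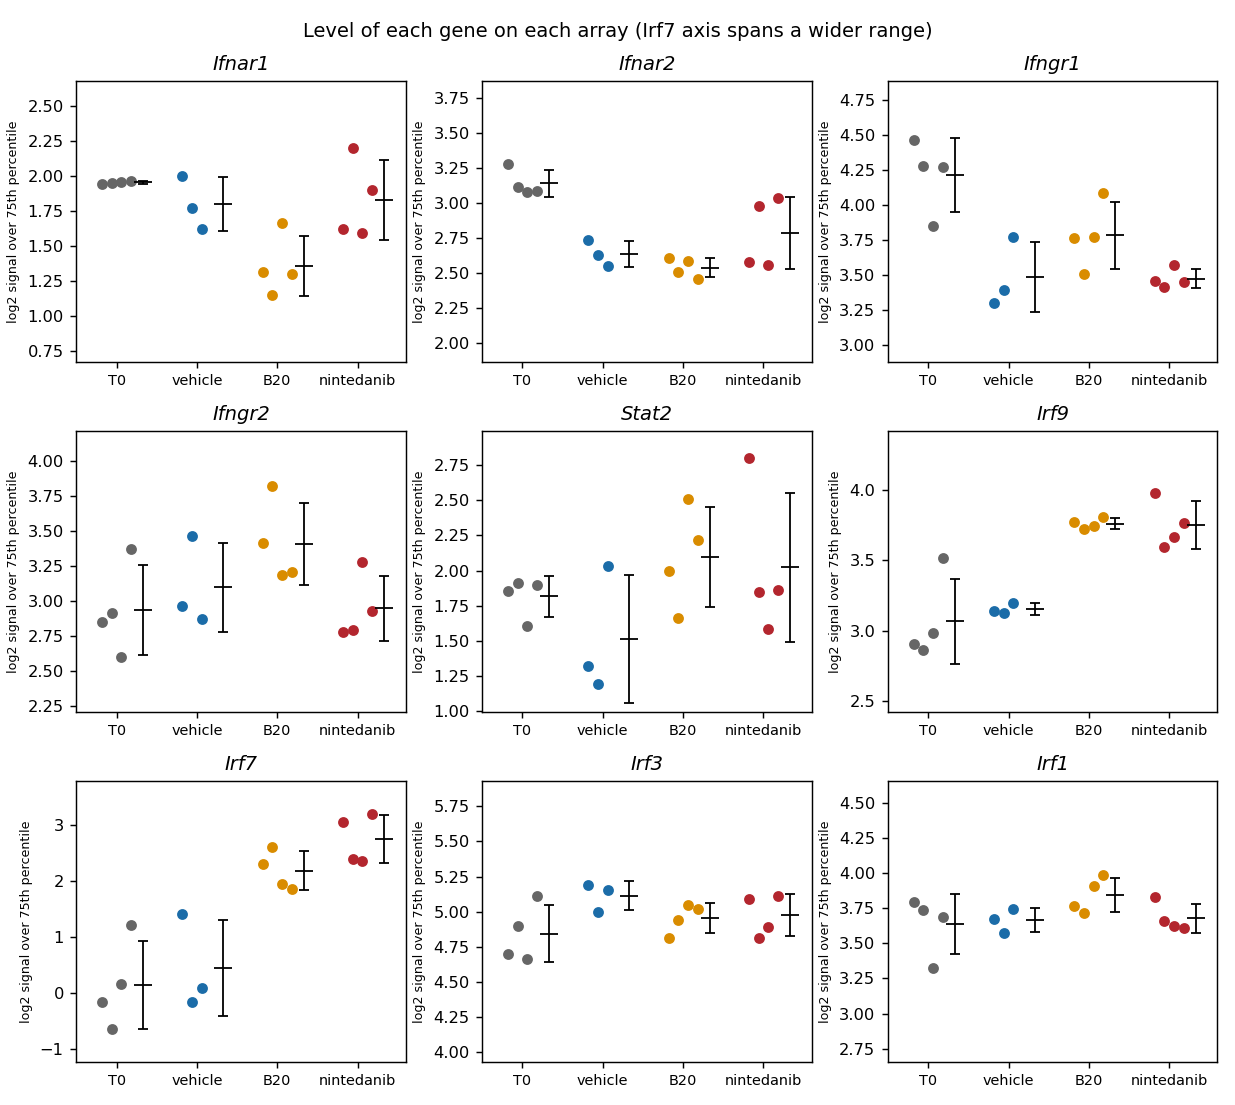
Level of each of the 9 genes on each of the 15 arrays, as log2 processed signal minus the 75th percentile of its array. Points are arrays and the bar beside each group is the mean ± SD. The Irf7 and Irf9 points of both drug groups lie above all vehicle points, while the other 7 genes overlap between vehicle and both drugs.

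Levels are given as the log2 processed signal of the probe minus the 75th percentile of its array, so 0 is the signal that 75% of the probes of that array lie below. They compare arrays for 1 probe and not genes with each other. Irf7, the interferon-inducible amplifier of type I interferon transcription, stood at 1.42, -0.16 and 0.08 on the 3 vehicle arrays. On the 4 nintedanib arrays it stood at 3.05, 2.40, 2.36 and 3.19, and on the 4 B20 arrays at 2.31, 2.61, 1.94 and 1.86. The lowest treated array was thus above the highest vehicle array, which was replicate 1. Nintedanib exceeded vehicle by 2.30 ± 0.44 (log2 difference ± SE, 95% interval 1.35 to 3.26, adjusted p = 0.276, limma), the 15th lowest p of all genes. B20 exceeded vehicle by 1.73 ± 0.44 (0.78 to 2.69, adjusted p = 0.998, limma), rank 34. Vehicle replicate 1 bears on these sizes, and without it the differences were 2.79 and 2.22.

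Irf9, the DNA-binding subunit of ISGF3, varied over a narrower range with less scatter. Its levels were 3.14, 3.12 and 3.20 on vehicle arrays, 3.77, 3.72, 3.75 and 3.81 on B20 arrays, and 3.98, 3.59, 3.67 and 3.77 on nintedanib arrays. Both drug groups lay wholly above vehicle and overlapped each other. The log2 difference from vehicle was 0.60 ± 0.17 for nintedanib (adjusted p = 0.65, limma) and 0.61 ± 0.17 for B20 (adjusted p = 0.998, limma). The signs and near sizes held on each slide: 0.62 and 0.57 for nintedanib and 0.62 and 0.61 for B20 on the slides with 8 and 3 arrays. For Irf7 the B20 differences were 1.66 and 1.78. Those for nintedanib kept their sign but not their size, at 1.97 and 3.11, the second from 1 array against 1.

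Stat2, the ISGF3 subunit that docks on the type I receptor, did not separate the groups. It stood at 1.32, 1.19 and 2.03 on vehicle arrays, at 1.99, 1.66, 2.51 and 2.22 on B20 arrays and at 2.80, 1.85, 1.59 and 1.86 on nintedanib arrays. Vehicle replicate 3 lay among the treated arrays. The log2 difference from vehicle was 0.51 ± 0.29 for nintedanib (95% interval -0.12 to 1.14) and 0.58 ± 0.29 for B20 (-0.05 to 1.22). On the slide with 3 arrays the nintedanib difference was -0.17, against 0.82 on the slide with 8.

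Irf3, the constitutive partner of Irf7, lay at 4.99 to 5.19 on vehicle arrays, 4.81 to 5.05 on B20 arrays and 4.81 to 5.11 on nintedanib arrays. The log2 difference from vehicle was -0.14 (95% interval -0.46 to 0.19) for nintedanib and -0.16 (-0.49 to 0.17) for B20. The upper ends of both intervals lie below the lower ends of those of Irf7. Irf1, the interferon gamma-induced factor, lay at 3.57 to 3.75 on vehicle arrays, 3.61 to 3.83 on nintedanib arrays and 3.72 to 3.98 on B20 arrays. Its differences from vehicle were 0.01 (-0.31 to 0.33) and 0.18 (-0.14 to 0.50). A second Irf1 probe, for another transcript, was well above background on 2 of 15 arrays and gives no level. Both genes thus overlapped with vehicle under both drugs.

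The 4 receptor chains overlapped between vehicle and both drug groups. Ifnar2, the high-affinity type I chain, stood at 2.74, 2.63 and 2.55 on vehicle arrays, and its log2 differences were 0.15 (95% interval -0.18 to 0.48) for nintedanib and -0.10 (-0.43 to 0.23) for B20. Ifngr1, the ligand-binding chain for interferon gamma, differed by -0.01 (-0.41 to 0.39) and 0.30 (-0.10 to 0.70). Ifngr2, the signalling chain that brings in Jak2, differed by -0.15 (-0.65 to 0.34) and 0.31 (-0.19 to 0.80). Each interval includes 0, and the intervals for nintedanib reach no further than 0.65 in either direction.

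Ifnar1, the type I chain bound by Tyk2, was the receptor with the largest difference under B20. Its brightest probe stood at 2.0, 1.77 and 1.63 on vehicle arrays, 1.32, 1.15, 1.66 and 1.30 on B20 arrays, and 1.62, 2.20, 1.59 and 1.90 on nintedanib arrays. B20 differed from vehicle by -0.44 ± 0.18 (unadjusted p = 0.0281, adjusted p = 0.998, limma), with the third B20 array inside the vehicle range. The other 2 probes match the same transcript, are dimmer and went their own way: B20 differed from vehicle by -0.07 on one and -0.14 on the other. Across the 15 arrays their levels correlated with the brightest probe at r = -0.19 and -0.41. Any statement on Ifnar1 therefore belongs to 1 probe.

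**Figure D2:**
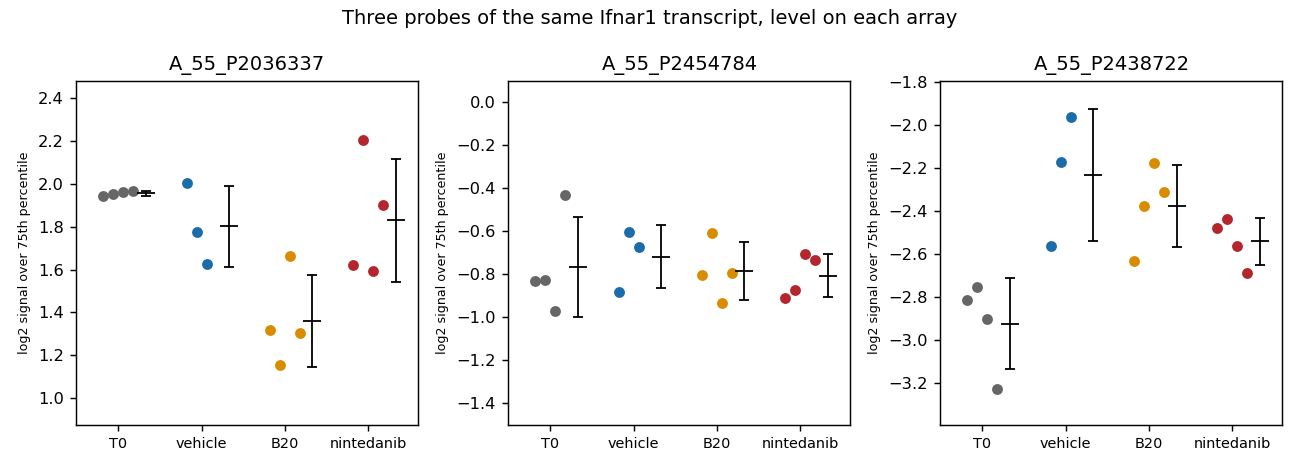
Levels of the 3 probes that match the Ifnar1 transcript, on each of 15 arrays (log2 processed signal minus the 75th percentile, mean ± SD beside each group). The brightest probe (left) is lowest on B20 arrays, the middle probe is level over the groups, and the dimmest (right) is lowest on T0 arrays.

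Counted together, 2 of the 9 genes lay without overlap above vehicle under nintedanib, where 3.22% of all genes did, and 2 of 9 under B20, where 2.82% did. In both comparisons these were Irf7 and Irf9. At an unadjusted p under 0.05, in either direction, 2 of 9 genes passed under nintedanib (4.83% of all genes) and 3 of 9 under B20 (3.25% of all genes; Irf7, Irf9 and the 1 Ifnar1 probe). Both comparisons use the same vehicle arrays. The median log2 difference of the 9 was 0.03 for nintedanib and 0.30 for B20, against -0.01 and 0.04 for all genes.

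**Figure D3:**
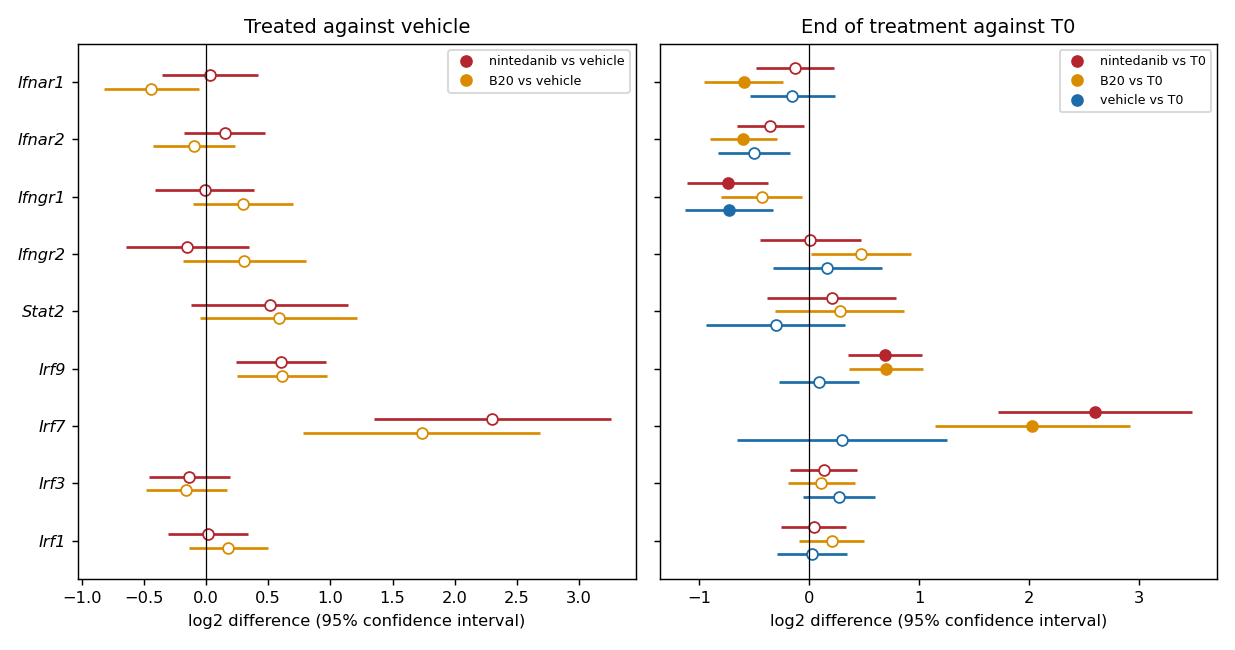
Log2 difference of each gene with its 95% confidence interval, for both drugs against vehicle (left) and for the 3 end-of-treatment groups against T0 (right). Filled points passed an adjusted p under 0.05, and open points did not. On the left no point is filled, and on the right Irf7, Irf9, Ifngr1, Ifnar2 and Ifnar1 have at least 1 filled point.

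The drugs were then set against each other, at the 1 dose each was given. No gene was called (0% of those tested, lowest adjusted p 0.518, limma), and none of the 9 genes was free of overlap, against 5.72% of all genes in either direction. At an unadjusted p under 0.05, in either direction, 2 of the 9 passed, against 2629, or 9.38%, of all genes. These were the brightest Ifnar1 probe, higher under nintedanib by 0.47 ± 0.17 (adjusted p = 0.518, limma), and Ifngr2, where nintedanib minus B20 was -0.46 ± 0.21 (adjusted p = 0.532, limma). For Irf7 the difference was 0.57 ± 0.41 (95% interval -0.31 to 1.45), and for Irf9 it was -0.01 ± 0.16 (-0.35 to 0.33). In the order of Irf7 means, nintedanib (2.75) came first, then B20 (2.18), vehicle (0.45) and T0 (0.15). B20 and nintedanib overlapped, as did vehicle and T0.

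Comparisons with T0 ask how tumours at the end of each arm differed from those before treatment. Irf7 rose in both drug arms and Irf9 rose with it. Among receptor chains, Ifngr1 passed as lower in the vehicle and nintedanib arms, and Ifnar2 and the brightest Ifnar1 probe in the B20 arm. These falls were not particular to those arms for Ifnar2 and Ifngr1. Ifnar2 also lay below T0 without overlap in the vehicle and nintedanib arms (-0.50 and -0.35), and Ifngr1 was lower in the B20 arm (-0.43), without passing. Slides, scan day and image-analysis protocol changed with the group in all 3 comparisons and cannot be told apart from it. Stat2, Irf3, Irf1 and Ifngr2 passed in none of the 3.

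On the T0 arrays Irf7 stood at -0.15, -0.64, 0.17 and 1.22, all below every nintedanib and B20 array. The rise over T0 was 2.60 ± 0.41 for nintedanib (6.06-fold, adjusted p = 0.00389, limma) and 2.03 ± 0.41 for B20 (4.09-fold, adjusted p = 0.0128, limma). The highest T0 array was replicate 4, the one with the second label of vehicle. With T0 replicates 3 and 4 both left out, a choice made after seeing the data, the rises were 3.14 (adjusted p = 0.0011) and 2.58 (adjusted p = 0.00289, limma). Vehicle differed from T0 by 0.30 ± 0.44 (adjusted p = 0.767, limma), a difference that became -0.19 without vehicle replicate 1.

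Irf9 stood at 2.90, 2.86, 2.98 and 3.51 on T0 arrays, again with replicate 4 highest and again below every drug array. It rose over T0 by 0.69 ± 0.16 with nintedanib (adjusted p = 0.0152, limma) and by 0.70 ± 0.16 with B20 (adjusted p = 0.0183, limma). The calls did not hold with each array's median as the scale (adjusted p = 0.247 and 0.243) nor in a fit of only the groups compared (0.0799 and 0.0744). Leaving out nintedanib replicate 1 gave an adjusted p of 0.0506 for nintedanib. For B20 it was 0.0552 without B20 replicate 4, 0.0541 without T0 replicate 1 and 0.0527 without T0 replicate 2. Without T0 replicates 3 and 4 the rises were 0.87 and 0.88 (0.00365 and 0.00369). Vehicle differed from T0 by 0.09 ± 0.17.

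Ifngr1 was highest before treatment, at 4.47, 4.28, 3.85 and 4.27. It stood at 3.30, 3.39 and 3.77 on vehicle arrays and at 3.46, 3.41, 3.57 and 3.46 on nintedanib arrays, all below every T0 array. On B20 arrays it stood at 3.77, 3.51, 3.78 and 4.09, and the last of these lay inside the T0 range. The log2 difference from T0 was -0.73 ± 0.19 for vehicle (adjusted p = 0.0416, limma), -0.74 ± 0.17 for nintedanib (adjusted p = 0.0172, limma) and -0.43 ± 0.17 for B20 (adjusted p = 0.131, limma). The vehicle call was lost in 18 of 27 other settings, 12 of them the omission of a single array, with adjusted p up to 0.135 in those 12 (without vehicle replicate 1). The nintedanib call was lost without T0 replicate 1 (0.0523) and under median scaling (0.193). Without T0 replicates 3 and 4 the differences were -0.88 for vehicle (0.0176) and -0.90 for nintedanib (0.01).

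Ifnar2 was also highest before treatment, at 3.28, 3.11, 3.08 and 3.08, and no end-of-treatment array reached these levels. It stood at 2.61, 2.51, 2.59 and 2.46 on B20 arrays and at 2.58, 2.98, 2.56 and 3.03 on nintedanib arrays. The log2 difference from T0 was -0.60 ± 0.14 for B20 (adjusted p = 0.0217, limma), -0.50 ± 0.15 for vehicle (adjusted p = 0.0748, limma) and -0.35 ± 0.14 for nintedanib (adjusted p = 0.12, limma). The B20 call was lost without B20 replicate 2 (0.0526), B20 replicate 4 (0.0658) or T0 replicate 1 (0.0637), and also under median scaling (0.294) and in the fit of only the groups compared (0.0555). Without T0 replicates 3 and 4 the B20 difference was -0.66 (0.0302).

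The brightest Ifnar1 probe was level over T0, at 1.94, 1.95, 1.96 and 1.96, and above every B20 array. B20 differed from T0 by -0.59 ± 0.17 on it (adjusted p = 0.0404, limma). The call belongs to that probe: the others differed by -0.02 and 0.55, and the mean of the 3 probes by -0.02 (adjusted p = 0.928). It was lost in 16 of 27 other settings, among them the omission of B20 replicate 1, 2 or 4, of nintedanib replicate 4, of vehicle replicate 2 or of any 1 T0 array, with values of -0.60 to -0.53 in these. Without T0 replicates 3 and 4 it was -0.59 (adjusted p = 0.0865). Ifngr2 stood at 2.85, 2.92, 2.60 and 3.37 on T0 arrays and at 3.41, 3.82, 3.19 and 3.21 on B20 arrays, a difference of 0.47 ± 0.21 (adjusted p = 0.178, limma).

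The remaining factors did not pass in any arm against T0. Stat2 stood at 1.85, 1.91, 1.60 and 1.90 on T0 arrays, and its log2 differences were -0.30 in vehicle, 0.21 with nintedanib and 0.28 with B20. Irf3 stood at 4.70, 4.90, 4.67 and 5.11 and differed by 0.27 in vehicle, 0.13 with nintedanib and 0.11 with B20. Irf1 stood at 3.80, 3.74, 3.33 and 3.69, lowest on replicate 3, and differed by 0.03, 0.04 and 0.21. T0 overlapped with every other group for all 3.

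In all, 1 of the 9 genes was called lower in vehicle vs T0, where 2.13% of all genes were. In nintedanib vs T0, 2 were called higher (6.83% of all genes) and 1 lower (4.62%). In B20 vs T0, 2 were called higher (5.8%) and 2 lower (3.74%). By overlap, 2 of 9 lay below T0 in vehicle (6.95% of all genes), 2 above and 2 below in nintedanib (9.4% and 7.46%), and 2 above and 2 below in B20 (9.28% and 6.2%). The 3 comparisons share the T0 arrays.

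The rest of the pathway was followed through 7 gene lists, chosen with earlier results of these data known. Of 19 interferon ligands, 15 had probes and 11 were tested, 0 of them called against vehicle in either drug group. The alpha interferon genes are near-identical copies, so their probes may read each other. Ifnb1, the beta interferon, was well above background on 2 of 15 arrays and not tested. Ifng, the gamma interferon, was well above background on 4 of 4 nintedanib arrays, 1 of 4 B20 arrays, 1 of 4 T0 arrays and on none of the 3 vehicle arrays. The Ifng probe passed the filter on dim probes only through the nintedanib arrays, so its difference is a description and not support. Its mean with nintedanib differed from vehicle by 1.06 ± 0.50 (adjusted p = 0.999, limma). Against a floor set by the dimmest probes well above background, the means differed by at least 1.89-fold. This bound leaves out the spread between arrays. With B20, the lowest p-values were those of Ifna12 (0.66 ± 0.37) and Ifna5 (-0.65 ± 0.41), and Ifna12 differed by 0.42 ± 0.37 with nintedanib. Of ligands compared with T0, Ifnab rose with nintedanib, by 1.73 ± 0.46 (adjusted p = 0.0297, limma).

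The direct partners of the 9 genes showed no separation of the drug groups from vehicle. Of the 7 other receptors, kinases and STATs, 0 were called against vehicle, 0 had an unadjusted p under 0.05 and 0 were free of overlap. Of all genes, 4.83% with nintedanib and 3.25% with B20 had an unadjusted p under 0.05. Tyk2, the kinase on Ifnar1, differed from vehicle by 0.36 ± 0.20 with nintedanib and -0.08 ± 0.20 with B20. The lowest p-values under nintedanib belonged to Ifnlr1, a chain of the type III receptor (0.31 ± 0.15), and Stat3 (-0.45 ± 0.25), and under B20 to the kinase Jak1 (-0.19 ± 0.19) and Ifnlr1 (0.13 ± 0.15). Against T0, Tyk2 rose with nintedanib by 0.77 ± 0.19 (adjusted p = 0.0192, limma), and Jak2, the kinase on Ifngr2, fell by 0.64 ± 0.18 (adjusted p = 0.0361, limma).

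The other 5 genes of the IRF family were not called against vehicle either. Irf4 is a factor of activated lymphocytes and plasma cells. It was well above background on none of the 3 vehicle arrays and on 3 of 4 nintedanib arrays. Nintedanib differed from vehicle by 1.91 ± 0.80 (adjusted p = 0.979, limma). Against the floor used for Ifng, the means differed by at least 3.17-fold. On T0 arrays Irf4 was well above background on 4 of 4. Against that floor its T0 mean was at least 9.77-fold above vehicle (adjusted p = 0.0267, limma). These bounds leave out the spread between arrays. B20 differed from T0 by -3.11 ± 0.75 (adjusted p = 0.0232, limma). Irf4 was well above background on 1 of the 4 B20 arrays, so the size of the last difference rests mostly on signals below that level. Irf2, a factor that competes with Irf1 for its sites, fell against T0 in all 3 arms: by 1.10 ± 0.20 with vehicle, 0.79 ± 0.19 with nintedanib and 1.02 ± 0.19 with B20 (adjusted p = 0.0119, 0.0195 and 0.00966, limma). Irf2 differed from vehicle by 0.31 ± 0.20 with nintedanib, and Irf5, a factor of myeloid cells, by -0.19 ± 0.29 with B20.

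Among 9 tested negative regulators, 0 were called against vehicle. At an unadjusted p under 0.05 there were 1 for nintedanib and 2 for B20, against 4.83% and 3.25% of all genes. The largest differences were those of Usp18. It encodes the isopeptidase that removes Isg15 and blocks Ifnar2 signalling, and it differed from vehicle by 2.20 ± 0.49 with nintedanib (adjusted p = 0.43, limma) and 1.82 ± 0.49 with B20 (adjusted p = 0.998, limma), with no overlap in either. Over T0 it rose by 1.95 ± 0.46 and 1.57 ± 0.46 (adjusted p = 0.0176 and 0.0468, limma). Socs1, an inhibitor of Jak kinases, differed from vehicle by 0.17 ± 0.17 with nintedanib. Ptpn1, a phosphatase of Tyk2 and Jak2, differed by -0.54 ± 0.22 with B20 (adjusted p = 0.998, limma). The median of the list was 0.06 and 0.03. With B20, Socs3 and Ptpn2 rose over T0 by 1.07 ± 0.21 and 0.65 ± 0.18 (adjusted p = 0.0108 and 0.0433, limma).

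Of the 8 tested adaptors and kinases that sense nucleic acid and activate Irf3 and Irf7, 0 were called against vehicle, 0 had an unadjusted p under 0.05 and 0 were free of overlap. The share of all genes with an unadjusted p under 0.05 was 4.83% with nintedanib and 3.25% with B20. Mavs, the adaptor of cytosolic RNA sensing, differed from vehicle by 0.24 ± 0.21 with nintedanib, and Ikbke, a kinase of Irf3 and Irf7, by -0.46 ± 0.22 with B20. Traf3, the ligase that links these adaptors to the kinases, differed by -0.41 ± 0.24 with B20. Traf6, another such ligase, differed by 0.22 ± 0.20 with nintedanib. Ikbke rose over T0 in the vehicle arm by 1.06 ± 0.22 and in the nintedanib arm by 1.27 ± 0.21 (adjusted p = 0.02 and 0.00442, limma).

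**Figure D4:**
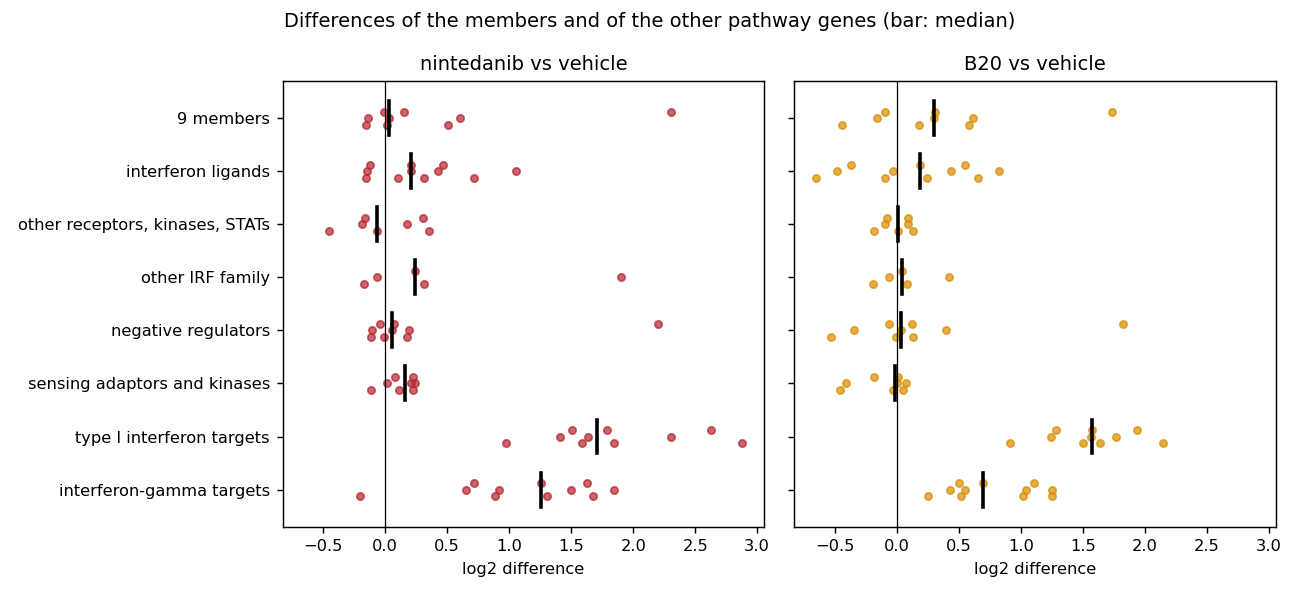
Log2 difference from vehicle of the 9 genes and of each tested gene of the 7 pathway lists, for nintedanib (left) and B20 (right), with the list median as a bar. The medians of the type I targets are 1.71 and 1.57, and of the interferon-gamma targets 1.25 and 0.69. The medians of the other 5 lists lie between -0.07 and 0.24.

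Downstream of the receptors, all 10 tested type I interferon targets lay above vehicle without overlap in both drug groups. Of all genes, 3.22% did with nintedanib and 2.82% with B20. The list was chosen with earlier results of these data known, so this count is a description and not support. None of the 10 was called, and all 10 had an unadjusted p under 0.05 in each comparison, against 4.83% and 3.25% of all genes. Their median log2 difference was 1.71 with nintedanib and 1.57 with B20. Oas2, a synthetase that activates RNase L, differed by 2.88 ± 0.54 with nintedanib, and Oasl2, its relative, by 2.63 ± 0.49 (adjusted p = 0.276 for each, limma). In B20, Cmpk2, a mitochondrial nucleotide kinase, differed by 0.91 ± 0.21, and Ifit3, a protein of the antiviral IFIT complex, by 1.93 ± 0.45 (adjusted p = 0.998 for each, limma). Over T0, 7 of the 10 were called higher with nintedanib, against 6.83% of all genes. They were Oasl2 (2.37), Oas2 (1.92), Ifit1 (1.74), the ubiquitin-like modifier Isg15 (1.68), Ifit3 (1.64), Rtp4 (1.54) and Ifi44 (1.35) (adjusted p 0.00824 to 0.0458, limma). With B20 4 were called higher, against 5.8% of all genes. They were Isg15 (1.85), Ifit1 (1.59), Ifi44 (1.41) and Rtp4 (1.38) (adjusted p 0.0206 to 0.0445, limma). In vehicle vs T0, 1 was called lower, against 2.13% of all genes: Cmpk2, by 0.95 ± 0.21 (adjusted p = 0.0229, limma).

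Of 11 tested interferon-gamma targets, 10 lay above vehicle without overlap with nintedanib and 8 with B20, against 3.22% and 2.82% of all genes. This list too was chosen with earlier results known. Of the 11, 0 were called, and 10 and 7 had an unadjusted p under 0.05 (4.83% and 3.25% of all genes). Ciita, which overlapped with vehicle under both drugs, differed by -0.20 ± 0.61 with nintedanib and 0.25 ± 0.61 with B20. Ido1 was well above background on 1 of 15 arrays and not tested. Which interferon acts on these genes was not tested. Iigp1 and Igtp, GTPases of immunity to intracellular parasites, differed with nintedanib by 1.25 ± 0.21 and 1.63 ± 0.30 (adjusted p = 0.276 for each, limma). With B20, Iigp1 differed by 1.25 ± 0.21 (adjusted p = 0.338, limma) and Gbp3, a guanylate-binding protein, by 1.25 ± 0.30 (adjusted p = 0.998, limma). Over T0, 3 were called higher with nintedanib, against 6.83% of all genes. They were Igtp (1.53), the peptide transporter Tap1 (1.28) and the GTPase Irgm1 (0.91) (adjusted p 0.00589 to 0.0252, limma). With B20 2 were called higher, against 5.8% of all genes: Igtp by 1.00 and Irgm1 by 0.80 (adjusted p = 0.0373 and 0.0457, limma). In vehicle vs T0, 2 were called lower, against 2.13% of all genes. They were Iigp1, by 1.18 ± 0.21, and the T cell chemokine Cxcl9, by 1.88 ± 0.39 (adjusted p = 0.0105 and 0.0176, limma).

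Array by array, the levels of Irf7 and Irf9 followed those of the type I targets, more closely than the other 7 genes did when group differences were left in. The mean level of the 10 targets correlated across the 15 arrays with Irf7 at r = 0.93 and with Irf9 at r = 0.93, and with Stat2 at 0.58. After each group's mean was taken off, the values were 0.83, 0.86 and 0.37, so the arrays of 1 group also ran together. Irf3 correlated at 0.23 over all arrays but at 0.68 within groups, above Stat2. Irf1 correlated at 0.36 (0.23 within groups), and the receptor chains at -0.35 to 0.17 (-0.19 to 0.09). T0 replicate 4 had the highest target mean of its group, 2.52 against 0.58 to 1.24 on the other 3, and also the highest Irf7 and Irf9. All these points share arrays, groups and scaling and are given as description.

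**Figure D5:**
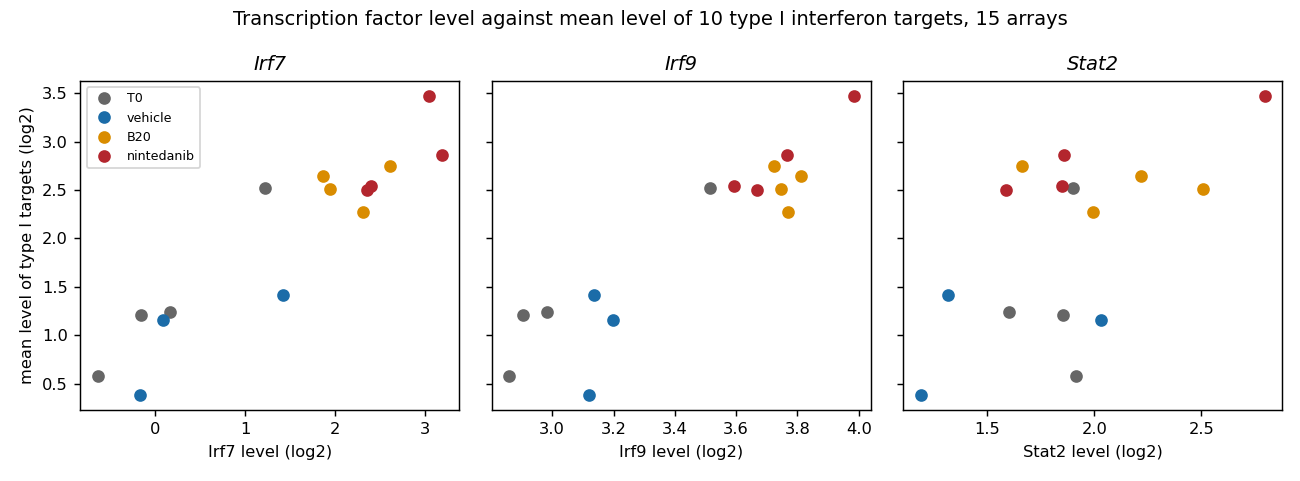
Level of Irf7, Irf9 or Stat2 (x axis, log2) against the mean level of 10 type I interferon targets (y axis, log2), 1 point per array and coloured by group. Points of Irf7 and Irf9 lie along a rising line (r = 0.93 for each), with most vehicle and T0 points at the low end. T0 replicate 4 lies higher in both of these panels. In the Irf7 panel vehicle replicate 1 (Irf7 1.42) lies further along the x axis than T0 replicate 4 (1.22). Stat2 is scattered (r = 0.58).

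Among the 9 genes themselves, Irf7 and Irf9 had the highest correlation with group differences left in (r = 0.92, and 0.65 within groups, over 15 arrays). Ifnar1 and Ifnar2, which neighbour each other on chromosome 16 with Il10rb between them and Ifngr2 next, came second (r = 0.77, 0.71 within groups), on the brightest Ifnar1 probe. Irf1 and Stat2 followed (r = 0.66, 0.67 within groups). Ifnar1 and Ifngr2 ran opposite (r = -0.65, -0.36 within groups). Within groups the order was another: Irf1 and Ifngr1 came first at 0.78 (0.28 with group differences left in), then Ifnar1 with Ifnar2, and Irf3 with Irf9 at 0.70 (0.31).

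Across all named genes, those most like each of the 9 were found by Pearson correlation over the 15 arrays. For Irf7 they were Apol9a (0.97), Apol9b (0.97) and Xaf1 (0.95), and for Irf9 Oas1a (0.96), Apol9a (0.96) and Apol9b (0.96). Apol9a and Apol9b are near-identical copies whose probes may read each other. For Stat2 they were Parp14 (0.87), Gprc5c (0.82) and Cpeb2 (0.81). For Irf1 they were Zfp661 (0.85), Taz (0.77) and Ptprz1 (0.76), and for Irf3 Slc4a2 (0.83), Zfp553 (0.82) and Crygf (0.80). For Ifnar1 they were Chst14, Naa60 and Mvb12b (0.93 to 0.94), and for Ifnar2 Tmem109 (0.97), Psen2 (0.97) and Elmod3 (0.96). For Ifngr1 they were Rbfox2, Zeb2 and Usp25 (0.93 for each), and for Ifngr2 Ebpl, Rpl3 and Mvb12a (0.95 for each).

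Markers of other cell types differed between some of these groups, and their part in the interferon results was not tested. Interferons act on all cells of a tumour, so markers are given for the cells that could carry the difference. Each summed level is the log2 of the added signals of a list, scaled as above. Those of the 8 tested macrophage markers, all well above background on 15 of 15 arrays, ranged from 6.04 to 6.52 on vehicle arrays, 6.30 to 6.52 on B20 arrays and 6.35 to 6.76 on nintedanib arrays. The 10 tested T and NK cell markers ranged from 3.05 to 3.42, 3.34 to 4.36 and 2.95 to 4.01. Of these, the NK marker Klrb1c was well above background on none of the vehicle or B20 arrays, and Cd8a on 1 of 3 vehicle, 3 of 4 B20 and 4 of 4 nintedanib arrays. The 7 markers of plasmacytoid dendritic cells, the main makers of type I interferon in blood, ranged from 7.28 to 7.83, 7.39 to 8.03 and 7.17 to 7.65. This sum is mostly the signal of Siglech, with means of 7.28, 7.34 and 7.13. Of the 7, 4 were higher and 3 lower than vehicle with nintedanib, and 6 and 1 with B20. One of them, Cox6a2, went in the direction of the skeletal muscle markers given below. It differed from vehicle by 1.14 ± 1.66 with nintedanib and 2.18 ± 1.66 with B20, and vehicle differed from T0 by -4.36 ± 1.66. Whether the sum or the counts follow plasmacytoid dendritic cells was not tested. Ly6d lay above vehicle without overlap with nintedanib, by 1.24 ± 0.46 (adjusted p = 0.929, limma). Groups overlapped in each summed level, and 0 markers of the 3 lists were called against vehicle.

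The 7 adipocyte markers, Adipoq and Plin1 among them, were higher in 7 of 7 cases in both drug groups than in vehicle, with a median log2 difference of 2.39 for nintedanib and 2.61 for B20 and 0 called. Their summed level was 3.43 to 4.84 on vehicle arrays, 4.72 to 7.16 on B20 arrays, 4.11 to 7.02 on nintedanib arrays and 8.14 to 10.03 on T0 arrays. Against T0 all 7 fell in all 3 arms. The 8 endothelial markers had a median log2 difference from T0 of -0.99 in vehicle (3 called lower), -0.80 in nintedanib (3) and -1.64 in B20 (6). Of all genes, 2.13%, 4.62% and 3.74% were called lower in these comparisons. From vehicle the endothelial markers differed by a median of -0.42 with B20, with 7 of 8 lower and 0 called. Of the 8, 3 lay below vehicle without overlap, against 2.59% of all genes. With nintedanib the median was -0.09, with 5 of 8 lower and 0 called. Other lists also differed. The 6 skeletal muscle markers were all higher than vehicle under both drugs, with medians of 1.57 for nintedanib and 2.46 for B20, and all lower in vehicle than in T0 (median -3.95), with 0 called. Their summed level ranged widely within groups, from 2.17 to 5.02 on vehicle arrays, 2.60 to 9.54 on B20 arrays and 2.81 to 6.66 on nintedanib arrays. The 4 tested erythroid markers were all higher than vehicle as well (medians 0.98 and 1.12, 0 called). Their summed level was 5.36 to 5.80 on vehicle arrays, 5.96 to 7.59 on nintedanib arrays, with no overlap, and 4.34 to 8.66 on B20 arrays. Of 6 tested neutrophil markers, 5 were higher than vehicle with B20 (median 0.91) and 4 with nintedanib (0.36), with summed levels of 7.09 to 7.23 in vehicle, 7.06 to 7.54 and 6.53 to 7.38. All 8 macrophage markers were higher than vehicle with nintedanib (median 0.24), and 3 of 8 with B20. Of 10 T and NK cell markers 9 and 7 were higher (0.22 and 0.29), and of 4 B cell markers 4 and 3 (0.39 and 0.60). The part of these lists in the differences of Irf7 and Irf9 was not tested. Of 6 fibroblast markers, 5 were lower than T0 in vehicle, 6 with nintedanib and 6 with B20 (medians -0.48, -0.56 and -0.68). Of 10 T and NK cell markers, 8 were lower than T0 and 2 higher in each arm (medians -0.54, -0.17 and -0.22). The adipocyte, endothelial, skeletal muscle, fibroblast, and T and NK cell values stand beside the lower Ifngr1 and Ifnar2 levels. Their part in those levels was not tested.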

How the data were processed

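Whole mammary tumours were profiled on 15 arrays (T0 4, vehicle 3, B20 4, nintedanib 4). Per the file headers, Agilent Feature Extraction 10.7.3.1 read design 028005 and gave the deposited processed signal, a background-subtracted intensity, with flags for spots well above background and for outliers. The authors also deposited a log2 table, and the sources used here do not state its processing. It correlated at a median r of 0.999987 with values normalized here by normexp (offset 50) and quantile, and served as an alternative.

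Here each log2 intensity was scaled by the 75th percentile of its array over non-control probes. Outlier spots were left out (82 values, 0 in the 12 probes described). Probes well above background on at least 3 arrays were kept, and the brightest probe stood for a gene (28041 genes or unnamed transcripts). No spot was saturated. Group means were fitted over all 15 arrays with limma 3.58.1 (lmFit and eBayes, R 4.3.3), two-sided, with Benjamini-Hochberg adjustment over all tested and a threshold of 0.05. The number of arrays limits precision. The script was tested on simulated data. The 9 genes and all lists were chosen with earlier results of these data known. Pathway genes are named where they pass, or have the 2 lowest p-values of their list against vehicle for either drug. Ifnb1, Ciita and Ido1 are named besides. Alternatives covered background correction, scaling, filter, probe choice, slide, array weights, replicate block, groups fitted and each array left out. Normexp used the median spot signal.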

Additional observations from a re-analysis of the deposited data

Results flagged for a closer look

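The Ifnar2 level of T0 replicate 1 (3.28) lay apart from the other T0 arrays, of which the next was at 3.11. The gap was 0.844 of the range of the group, above the critical value for 4 samples. It was 1 of 27 groups of 4 arrays tested over the 9 genes, and chance picks out about 1 in 20 groups. Without this array, Ifnar2 differed between B20 and T0 by -0.55 (adjusted p = 0.0637, limma), against -0.60 with it.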

How the results depend on the processing

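Each comparison with T0 was repeated under 27 other settings and the others under 28. The rises of Irf7 over T0 passed in all 27 (2.34 to 3.14 for nintedanib, 1.77 to 2.58 for B20). Under normexp with quantile normalization, Irf9 in nintedanib vs B20 became 0.0831 and Ifnar1 in nintedanib vs T0 0.0074. Quantile normalization alone gave Ifngr1 in nintedanib vs vehicle 0.0476 and Irf9 in nintedanib vs B20 0.0886. Median scaling gave Irf1 -0.0488 and Ifnar1 -0.0348 in nintedanib vs vehicle, and Ifngr2 -0.0136 in nintedanib vs T0. The authors' values gave 4e-04, 0.0829 and 0.004 for Ifngr1 in nintedanib vs vehicle, Irf9 in nintedanib vs B20 and Ifnar1 in nintedanib vs T0. The mean of probes gave Ifnar1 -0.1226 in nintedanib vs vehicle, 0.1947 in vehicle vs T0 and 0.0721 in nintedanib vs T0. Slide as a fixed block gave Ifngr1 0.0083 in nintedanib vs vehicle, and as a random block Ifngr2 -0.0074 in nintedanib vs T0. The slide with 8 arrays alone gave Ifnar1 -0.0838 and Ifngr1 0.1339 in nintedanib vs vehicle, and Irf3 -0.0012, Irf9 0.0022 and Stat2 0.0227 in nintedanib vs B20. Array weights gave Ifngr1 0.0199 in nintedanib vs vehicle and Irf1 -0.0771 and -0.0421 in vehicle and nintedanib vs T0. T0 replicates 1 and 2 alone, chosen after seeing the data, gave Irf1 -0.1008 and -0.0867. None of these differences had been called, and the cause was not tested.

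Of the 9 genes, 1, 3 and 4 were called in vehicle, nintedanib and B20 vs T0. The first became 0 under quantile normalization, median scaling, no filter, slide as a random block and the fit of only the groups compared, and 2 under array weights. Median scaling left 1 in nintedanib and 1 in B20, and the fit of only the groups compared left 1 in B20. With array weights Ifnar2 in vehicle vs T0 (0.027) and Ifngr1 in B20 vs T0 (0.0282) passed, as did Ifngr2 in B20 vs T0 under normexp with quantile normalization (0.0344) and the authors' values (0.0354). Over all genes, 1385, 3211 and 2675 were called. Median scaling gave 680, 1365 and 1184, slide as a random block 876, 2031 and 1538, array weights 4621, 7314 and 5508, the fit of only the groups compared 17, 1462 and 984, and T0 replicates 1 and 2 alone 3349, 5041 and 4287. No filter gave 895 for vehicle vs T0. Array weights called 2 genes in nintedanib vs vehicle, and the fit of only the groups compared 1 in nintedanib vs B20.

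Leaving out 1 array at a time gave 0 to 2 genes called in nintedanib vs vehicle, 0 to 1 in nintedanib vs B20, 480 to 2099 in vehicle vs T0, 1613 to 3919 in nintedanib vs T0 and 920 to 3305 in B20 vs T0. Of the 9 genes, 0 to 1 were called in vehicle vs T0 and 1 to 4 in B20 vs T0. Differences that took both signs were, in nintedanib vs vehicle, Irf1 (-0.0361 to 0.0552), Ifnar1 (-0.0959 to 0.129), Ifngr1 (-0.1063 to 0.1273) and Ifngr2 (-0.2649 to 0.0293). In nintedanib vs B20 they were Irf3 (-0.0261 to 0.0769), Irf9 (-0.0866 to 0.0435) and Stat2 (-0.3315 to 0.0732). In vehicle vs T0 they were Irf1 (-0.0757 to 0.0806), Irf7 (-0.1891 to 0.6545) and Ifngr2 (-0.0167 to 0.3097). In nintedanib vs T0 they were Irf1 (-0.0615 to 0.0948), Stat2 (-0.0529 to 0.3518) and Ifngr2 (-0.0991 to 0.1576).

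A pairing of samples by replicate number is not stated in the labels. Deviations of same-numbered arrays correlated at -0.2355 to 0.2515 (10 pairs of end-of-treatment arrays), and those of 30 other pairs at -0.3045 to 0.3138. With so few arrays per group, these values cannot exclude a pairing. With the replicate block, 0 of the 9 genes were called in vehicle vs T0, and 1234, 2636 and 2082 genes over all in the 3 comparisons with T0.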
